A study of Rattus norvegicus with 81 samples.

Results

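The BMP signalling and Id genes described here are 10 rat genes: the ligands Bmp2, Bmp4 and Bmp7, the receptor Bmpr1a, the inhibitory SMADs Smad6 and Smad7, and the target genes Id1, Id2, Id3 and Id4. Each was measured by a single transcript cluster of a whole-transcript microarray, and clusters annotated with several gene symbols were not used. The 10 genes stand among 18166 named genes in the table that holds the methyl paraben, triclosan and most olive oil arrays, and all 10 are also among the 6762 named genes of the table that holds the diethyl phthalate arrays. They were selected on measured values of this series: Id1 stood low after diethyl phthalate at PND 21 to 41, so the values of that contrast are given below as a description with no test.

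The arrays were hybridised with RNA from the caudal (5th) mammary glands of female Sprague-Dawley rats given a low oral dose of diethyl phthalate (DEP, a plasticiser and solvent), methyl paraben (MPB, a preservative), triclosan (TCS, an antibacterial agent) or the olive oil vehicle (OIL). Exposure ran over gestation days (GD) 1 to 20 through the dam, over postnatal days (PND) 1 to 20 through milk, over PND 21 to 41, or over PND 42 to 62, and the glands were taken the day after a postnatal window, or at PND 21 after exposure in gestation. A chronic arm gave TCS or OIL from PND 1 until the glands were taken at the end of lactation, at PND 146. In all, 81 arrays form 18 groups of 5 rats, except 4 in TCS PND 1 to 20, and 3 each in TCS PND 21 to 41, TCS PND 42 to 62, TCS chronic and OIL chronic. In the perinatal groups each array is 1 pup of its own litter, and the OIL rats carry the gavage and the oil but none of the chemicals. Groups of 5 hold 3 arrays of the first labelled batch (batch 1) and 2 of the second (batch 2), TCS PND 1 to 20 holds 3 and 1, and the groups of 3 lie in batch 1 alone.

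Values are log2 intensities after the robust multi-array average (RMA), so a difference of 1 is a factor of 2, and levels of different genes are not set against each other because each has its own probes. Whole glands mix epithelium, fat, vessels, lymph node and some muscle, so fewer cells of a type and less RNA per cell cannot be told apart. All 13 luminal markers and 5 of 8 basal markers were measured. Krt18 of luminal cells ran from 6.64 to 10.41 log2 over the 55 arrays of the main table, and Krt14 of basal cells ran from 6.71 to 10.62 log2. Of the short-window arrays, 9 carried a skeletal muscle score above 2, and they lie in DEP, MPB, TCS and OIL groups.

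Bone morphogenetic proteins are secreted ligands that bring type I receptors such as BMPR1A together with type II receptors. The activated receptors phosphorylate SMAD1, SMAD5 and SMAD9, which enter the nucleus with SMAD4 and switch on targets, among them the Id genes and the feedback inhibitors Smad6 and Smad7. Id proteins lack a DNA-binding domain and hold E proteins away from DNA, and in the mammary gland they are known for roles in epithelial growth and differentiation, while in many tissues Id1 and Id3 are strongly expressed in blood vessels.

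SMAD complexes of this pathway bind GC-rich letters, written GGCGCC and GGAGCC in the targets studied best, and the palindrome GTCTAGAC is the classical SMAD3 and SMAD4 site. These 3 motifs were searched on both strands in RefSeq promoters of build GRCr8, each 300 bases from 250 before to 50 after the start, and 7 of the 10 genes matched the table by symbol (Id1, Id2, Id3, Id4, Smad7, Bmp4 and Bmpr1a). The promoters of Id1 and Id3 are shown because both targets recur in the comparisons below, and that of Smad7 because it holds the GC-rich palindrome more than once. Capitals mark the motif letters, and GGCGCC and GTCTAGAC read the same on both strands.
Id1 promoter, chr3:161671314-161671613, plus strand: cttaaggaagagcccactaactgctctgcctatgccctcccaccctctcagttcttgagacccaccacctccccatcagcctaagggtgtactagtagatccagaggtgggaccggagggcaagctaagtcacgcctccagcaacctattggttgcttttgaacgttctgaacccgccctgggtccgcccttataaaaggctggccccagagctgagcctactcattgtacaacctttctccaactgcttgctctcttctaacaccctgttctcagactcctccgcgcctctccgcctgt
Id3 promoter, chr5:153656041-153656340, plus strand: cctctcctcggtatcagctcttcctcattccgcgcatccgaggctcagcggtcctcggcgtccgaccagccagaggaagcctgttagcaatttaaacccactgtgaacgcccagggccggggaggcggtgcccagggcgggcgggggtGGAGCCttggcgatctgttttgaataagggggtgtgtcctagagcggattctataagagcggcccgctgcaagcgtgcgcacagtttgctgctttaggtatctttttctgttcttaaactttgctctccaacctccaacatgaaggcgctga
Smad7 promoter, chr18:71263258-71263557, plus strand: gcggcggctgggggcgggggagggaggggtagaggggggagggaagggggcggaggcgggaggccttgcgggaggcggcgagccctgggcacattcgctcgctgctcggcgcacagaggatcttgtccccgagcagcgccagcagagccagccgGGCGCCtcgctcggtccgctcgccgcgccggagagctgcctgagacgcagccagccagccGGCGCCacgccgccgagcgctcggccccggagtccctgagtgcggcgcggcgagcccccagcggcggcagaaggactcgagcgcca

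The Smad7 window held GGCGCC at positions -96 and -36 from the start, in a promoter of 77.7% G and C. Of all 33469 promoters, 11% held GGCGCC at least once and 1.91% held it 2 or more times, and the median promoter was 51.7% G and C. The Id3 window (58% G and C) held GGAGCC at position -102, a motif found in 27.9% of all promoters. The Id1 window (55.7% G and C) held none of the 3 motifs, and sequence outside the windows was not searched. Among the others, Id2 held GGAGCC at position 32, Bmp4 held it at positions -189 and 6, and Id4 held GGCGCC at position 39. Bmpr1a, at 30% G and C, held none, and GTCTAGAC occurred in 0.197% of all promoters and in none of the 7.

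The largest differences among the 10 genes lay between ages. Between PND 21 and PND 42, around the time the ducts branch into the fat pad, the ligand Bmp7 rose in every chemical and in OIL rats, while the ligand Bmp2 and the target Id3 fell. Both perinatal groups together make PND 21, and the ages also differ in exposure window. Age therefore cannot be told apart from the window in any comparison between ages. In OIL rats 1 of the 10 genes was higher and 3 were lower at PND 42, where 11.7% of all genes were called higher and 10.2% lower. In MPB rats 1 was higher and 2 were lower, against 3.4% and 4.3% of all genes, and in TCS rats 1 was higher and 3 were lower, against 9.6% and 5.38% of all genes. In DEP rats 1 was higher and 4 were lower, against 22.4% and 13.9% of the 6762 named genes in the table of the DEP arrays. That table holds fewer genes than the main one, so its shares are not set against those of the other sets. The PND 42 arrays of OIL and DEP rats are those on which the genes were chosen, so nothing is read from the counts of these 2 sets. The median difference over the 10 genes was -0.15 in OIL, -0.26 in MPB, -0.16 in TCS and -0.22 in DEP rats, where the median over all genes lay between -0.01 and 0.02. The OIL and DEP medians, and the p-values of the 10 genes in these 2 sets, are descriptions for the same reason.

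**Figure D1:**
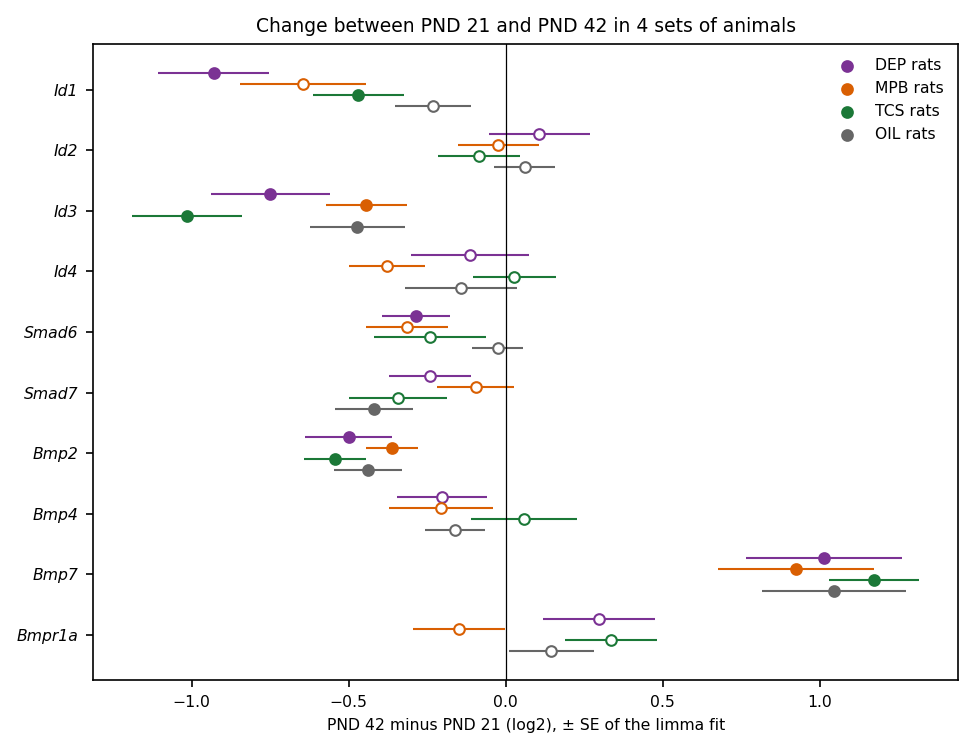
Difference in log2 value between PND 42 and PND 21 for each of the 10 genes, with the limma standard error, in DEP, MPB, TCS and OIL rats; filled points have an adjusted p under 0.05 and open points do not. Bmp7 lies above 0 in all 4 sets, by 0.92 to 1.17, and Bmp2 and Id3 lie below 0 in all 4. The OIL and DEP points are descriptions.

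Bmp7, a ligand that signals through type I receptors including BMPR1A and ACVR1, had a lowest value of 8.47, a median of 8.62 and a highest of 10.34 log2 over the 10 OIL rats of PND 21. The 5 OIL rats of PND 42 stood at 9.87, 10.69, 10.16, 9.71 and 9.58, and those of PND 63 at 9.99, 10.11, 9.84, 9.44 and 9.26. Most PND 21 arrays lay below all later ones, but 3 OIL rats exposed over PND 1 to 20, at 9.53, 9.66 and 10.34, reached into the later range, so the ages overlapped. The difference at PND 42 was 1.04 ± 0.23 (SE, adjusted p = 0.00245 by limma), and it was 1.04 within batch 1 and 1.05 within batch 2.

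In TCS rats Bmp7 stood at 8.24, 8.65 and 8.83 (lowest, median and highest of 9) at PND 21, at 9.88, 10.06 and 9.66 at PND 42, and at 9.57, 9.68 and 10.19 at PND 63. No PND 21 array reached the later values; 10.5% of all genes did not overlap between PND 42 and PND 21 in TCS rats. The difference between PND 42 and PND 21 was 1.17 ± 0.14 (adjusted p = 0.000141). In MPB rats it was 0.92 ± 0.25 (adjusted p = 0.0265) and in DEP rats 1.01 ± 0.25 (adjusted p = 0.0042). In MPB rats the call was lost without replicate 2 or replicate 4 of PND 21 to 41 (adjusted p = 0.114 and 0.0873). It was also lost there without the muscle-rich arrays and without the batch term (adjusted p of 0.136 and 0.0913 by limma).

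Bmp2, a ligand known from bone and from branching epithelia, ran the other way. In OIL rats it had a lowest value of 7.11, a median of 7.47 and a highest of 7.72 at PND 21, and stood at 6.76, 6.98, 6.86, 6.95 and 7.39 at PND 42 and at 6.92, 7.04, 6.81, 6.99 and 7.21 at PND 63. Of the 5 PND 42 arrays, 4 lay below the whole PND 21 range, and the fifth lay inside it. The difference was -0.44 ± 0.11 (adjusted p = 0.00586), with -0.64 within batch 1 and -0.14 within batch 2.

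In MPB rats Bmp2 stood at 7.20, 6.96, 7.20, 6.94 and 7.18 at PND 42, against 7.24, 7.46 and 7.62 (lowest, median and highest of 10) at PND 21. The ages did not overlap in that set, where 1.58% of all genes did not. The difference was -0.36 ± 0.08 (adjusted p = 0.0105), and it was -0.54 ± 0.10 in TCS rats (adjusted p = 0.00204) and -0.50 ± 0.14 in DEP rats (adjusted p = 0.00887). Bmp2 kept an adjusted p under 0.05 in all 4 sets whichever array was left out. In MPB rats it did not keep it without the muscle-rich arrays or in batch 1 alone (adjusted p of 0.055 and 0.133 by limma). Nor did it in batch 2 alone in OIL, MPB and DEP rats (adjusted p of 0.732, 0.343 and 0.422).

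The third ligand, Bmp4, known from the mesenchyme around epithelial buds, did not pass at PND 42 in any set. Its differences were -0.16 ± 0.10 in OIL, -0.21 ± 0.17 in MPB, 0.06 ± 0.17 in TCS and -0.20 ± 0.14 in DEP rats. The receptor Bmpr1a did not pass either, with differences of 0.15 ± 0.14 in OIL, -0.15 ± 0.15 in MPB, 0.33 ± 0.15 in TCS and 0.30 ± 0.18 in DEP rats. The signs of both genes differed between sets, within about 2 standard errors of 0 in all but the TCS value of Bmpr1a (adjusted p = 0.149).

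**Figure D2:**
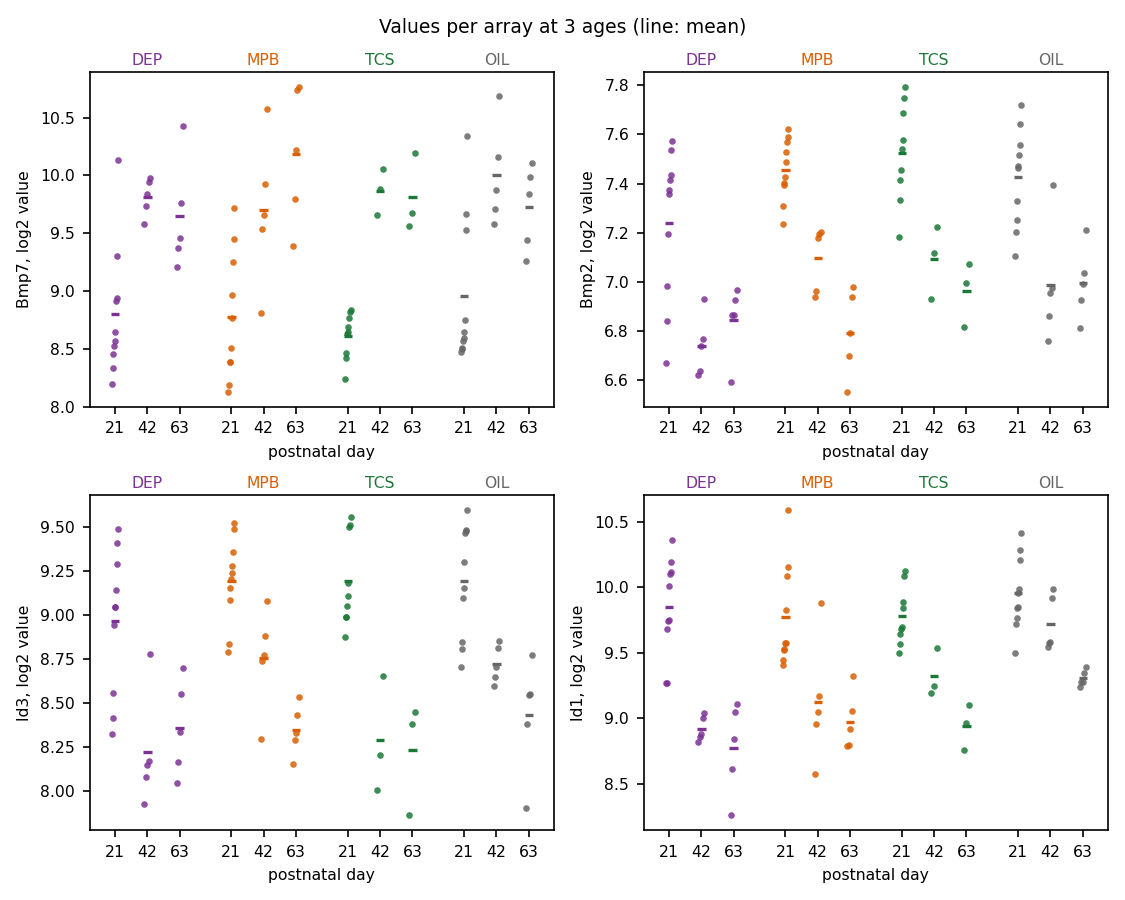
Log2 value of Bmp7, Bmp2, Id3 and Id1 on each array at PND 21, 42 and 63 in DEP rats (DEP table) and in MPB, TCS and OIL rats (main table); lines mark the mean. Bmp7 means are higher at PND 42 than at PND 21 in each set, and Id1 means are lower at PND 63 than at PND 42, at 9.31 in OIL rats.

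Of the inhibitory SMADs, Smad7, which blocks type I receptors of the whole TGF-beta family, fell in OIL rats at PND 42. It stood at 8.03, 7.75, 7.76, 7.28 and 7.42 at PND 42, against 7.49, 8.09 and 8.58 (lowest, median and highest of 10) at PND 21. The ages overlapped, the difference was -0.42 ± 0.12 (adjusted p = 0.0192), and without replicate 4 of OIL PND 21 to 41 the adjusted p was 0.0628. The differences in MPB, TCS and DEP rats were -0.10 ± 0.12, -0.34 ± 0.16 and -0.24 ± 0.13, none of which passed. Smad6, which acts mainly on BMP receptors and SMAD1, had differences of -0.03 ± 0.08 in OIL, -0.31 ± 0.13 in MPB and -0.24 ± 0.18 in TCS rats, and of -0.28 in DEP rats as a description.

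Among the targets, Id3 fell in MPB and TCS rats and, as a description, in OIL rats. In OIL rats it stood at 8.70, 9.23 and 9.60 (lowest, median and highest of 10) at PND 21, at 8.85, 8.59, 8.81, 8.65 and 8.71 at PND 42, and at 8.55, 8.38, 7.90, 8.55 and 8.77 at PND 63. The upper part of the PND 21 range stood clear of both later ages, and its lowest arrays did not. The difference at PND 42 was -0.47 ± 0.15 in OIL rats (adjusted p = 0.0286), and it was -0.44 within batch 1 and -0.52 within batch 2. Without replicate 2, 4 or 5 of OIL PND 21 to 41 the adjusted p exceeded 0.05, up to 0.0776.

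In TCS rats Id3 stood at 8.002, 8.20 and 8.65 at PND 42, against 8.87, 9.11 and 9.56 (lowest, median and highest of 9) at PND 21, with no overlap (10.5% of all genes). The difference was -1.01 ± 0.17 (adjusted p = 0.00141). In MPB rats it was -0.44 ± 0.13 (adjusted p = 0.0388), which was lost in 11 of 15 fits that left out 1 array, and was -0.63 within batch 1 and -0.17 within batch 2. In DEP rats it was -0.75, given as a description.

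Id1, which with Id3 marks vessels and BMP-responsive cells, did not pass between PND 21 and PND 42 in MPB rats (-0.65 ± 0.20, adjusted p = 0.0551). Without replicate 4 of MPB PND 21 to 41, a muscle-rich array, it did, at -0.86 (adjusted p = 0.00698). In OIL rats the difference was -0.23 ± 0.12, a description, since the OIL rats exposed over PND 21 to 41 are the controls of the contrast on which the genes were chosen. In TCS rats it fell by 0.47 ± 0.14 (adjusted p = 0.0414), to 9.25, 9.54 and 9.19 at PND 42, against 9.50, 9.70 and 10.13 (lowest, median and highest of 9) at PND 21; 1 PND 42 array lay inside the PND 21 range, and the call was lost in 6 of 12 fits that left out 1 array. In MPB rats the difference was -1.10 within batch 1 and 0.036 within batch 2. In DEP rats it was -0.93, as a description. Id2 and Id4, the other dominant-negative partners of E proteins, did not pass in any set. Id2 differed by 0.06 ± 0.10 in OIL, -0.02 ± 0.13 in MPB, -0.09 ± 0.13 in TCS and 0.11 ± 0.16 in DEP rats. Id4 differed by -0.14 ± 0.18, -0.38 ± 0.12, 0.03 ± 0.13 and -0.11 ± 0.19 in the same sets, and its MPB value came closest to the threshold (adjusted p = 0.0612).

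Cell type markers moved across the same ages. In OIL rats 12 of 13 luminal markers and 4 of 5 basal markers were called higher at PND 42, with median differences of 1.48 and 1.30, while 7 of 10 endothelial, 8 of 8 B cell, 7 of 7 T cell and 9 of 9 adipocyte markers were called lower, with medians of -0.37, -1.33, -2.09 and -0.72. The luminal score, the mean of its centred markers, ran from 0.72 to 1.27 in OIL rats at PND 42, against -1.99 to 0.61 in the OIL rats of PND 21, and the endothelial score from -0.25 to 0.04 at PND 42, against -0.004 to 0.58 at PND 21. With the endothelial score in the model, the OIL differences were 0.55 for Bmp7 (adjusted p = 0.263), -0.42 for Bmp2 (adjusted p = 0.101) and -0.07 for Id3 (adjusted p = 0.854), and the TCS difference of Id1 was -0.04 (adjusted p = 0.916). With the muscle and B cell scores instead, the OIL differences were 0.45 for Bmp7 (adjusted p = 0.327), -0.13 for Bmp2 (adjusted p = 0.58) and -0.23 for Id3 (adjusted p = 0.572). With the same scores Bmp7, Bmp2 and Id3 differed by 0.87, -0.34 and -0.43 in MPB rats (adjusted p of 0.012, 0.000702 and 0.0347 by limma). In TCS rats they differed by 0.89, -0.47 and -0.85 (adjusted p of 0.00235, 0.0249 and 0.0267). In DEP rats Bmp7 differed by 0.58 (adjusted p = 0.104) and Bmp2 by -0.49 (adjusted p = 0.0306). With the endothelial score, Bmp7 passed in TCS rats alone, at 1.245 (adjusted p = 0.00891), and Bmp2 in no set. Id3 then differed by -0.81 in TCS and -0.20 in MPB rats (adjusted p of 0.0626 and 0.608), and Id1 by -0.04 in MPB rats (0.951). Id1 differed by -0.65 in both TCS and MPB rats with the muscle and B cell scores (adjusted p of 0.0135 and 0.0152 by limma). Smad7 in OIL rats differed by -0.13 with those scores (adjusted p = 0.665) and by -0.56 with the endothelial score (adjusted p = 0.049). The part of the luminal and basal content in these differences was not tested.

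Between PND 42 and PND 63 few of the 10 genes passed. The PND 42 arrays of OIL and DEP rats are those on which the genes were chosen, by low Id1 in the DEP arrays against the OIL arrays, so nothing is read from the counts of these 2 sets. In OIL rats 1 passed, against 0.765% of all genes, and none passed in MPB rats (0.418% of all genes), TCS rats (0.0165%) or DEP rats (0.0887%) by limma. The 1 was Smad6, at 8.06, 8.19, 8.03, 8.06 and 8.02 at PND 63, against 8.31, 8.69, 8.64, 8.30 and 8.46 at PND 42 in OIL rats. Every PND 63 array lay below every PND 42 array (1.75% of all genes did not overlap), and the difference was -0.41 ± 0.09 (adjusted p = 0.0476), which did not hold when any of 9 of the 10 arrays was left out. Nothing is read from this call or from the lack of overlap, since the OIL arrays at PND 42 are part of what chose the genes. At an unadjusted p under 0.05 stood Id1 and Smad6 in OIL rats (12.3% of all genes), Id2, Id3, Bmp2 and Bmpr1a in MPB rats (11.3%), Id1 in TCS rats (4.65%) and Smad6 in DEP rats (10.8%). The MPB differences were 0.52 ± 0.15 for Id2, -0.41 ± 0.15 for Id3, -0.30 ± 0.10 for Bmp2 and 0.47 ± 0.17 for Bmpr1a (adjusted p of 0.153, 0.291, 0.213 and 0.285). Id1 in OIL rats stood at 9.40, 9.28, 9.28, 9.24 and 9.35 at PND 63, against 9.92, 9.54, 9.99, 9.58 and 9.58 at PND 42, a difference of -0.41 ± 0.14. The ages did not overlap, which is a description, because the high OIL values at PND 42 are part of what chose the genes.

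Some other genes of the pathway had larger differences between these ages. Of 69 listed ligands, receptors, SMADs, antagonists, ligases, targets and TGF-beta genes, 61 were measured in the main table and 33 in the DEP table. In OIL rats 11 of 61 were called higher and 8 lower at PND 42, against 11.7% and 10.2% of all genes. In MPB rats 3 were higher and 3 lower (3.4% and 4.3% of all genes), and in TCS rats 10 and 3 (9.6% and 5.38%). In DEP rats 10 of 33 were higher and 5 lower (22.4% and 13.9%). The shares called lower lay near those of all genes. The list's median difference was 0.07 in OIL, -0.05 in MPB, -0.02 in TCS and 0.08 in DEP rats. In OIL rats the secreted BMP antagonist Grem1 fell by 1.93 ± 0.41 (adjusted p = 0.0018), and the type I receptor Bmpr1b rose by 1.65 ± 0.21 (adjusted p = 2.45e-05). The ligand Tgfb3 rose by 1.40 ± 0.19 (adjusted p = 3.68e-05), the homeobox target Msx2 by 1.11 ± 0.15 (adjusted p = 5.11e-05) and the ligand Bmp3 by 0.98 ± 0.21 (adjusted p = 0.0019). These 5 had the largest differences of the called genes on the list.

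The differences in the treated rats were not tested against those in OIL rats. In TCS rats Grem1 fell by 2.56 ± 0.52 (adjusted p = 0.00408), and Tgfb3, Bmpr1b, Msx2 and the antagonist Nbl1 rose by 1.73 ± 0.19, 1.67 ± 0.16, 1.48 ± 0.18 and 1.18 ± 0.26 (adjusted p of 6.85e-05, 2.43e-05, 0.000162 and 0.00798). In DEP rats Grem1 fell by 1.62 ± 0.52 (adjusted p = 0.0203), and Bmpr1b, Tgfb3, Bmp3 and the transcription factor Runx2 rose by 1.52 ± 0.19, 1.31 ± 0.28, 0.81 ± 0.13 and 0.77 ± 0.18 (adjusted p of 1.57e-05, 0.00173, 0.000175 and 0.00295). In MPB rats Tgfb3, Bmpr1b and Msx2 rose by 0.86 ± 0.23, 0.82 ± 0.21 and 0.63 ± 0.16 (adjusted p of 0.029, 0.0176 and 0.0187). There the ligand Bmp6 fell by 0.76 ± 0.13 (adjusted p = 0.00174) and the type II receptor Acvr2a by 0.75 ± 0.10 (adjusted p = 0.000297). The E protein partners Tcf3, Tcf4 and Tcf12 were measured in the main table, and none was called in any set. No gene of the 61 was called in any other comparison by limma.

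Against OIL, none of the 10 genes passed in any chemical and window tested, which leaves out DEP over PND 21 to 41. DEP had 0, 0 and 0 genes called over GD 1 to 20, PND 1 to 20 and PND 42 to 62, where 0% of all genes were called, and MPB and TCS called 0 of the 10 where at most 0.0055% of all genes were called. At an unadjusted p under 0.05 stood 1 of the 10 in DEP GD 1 to 20 (6.97% of all genes), none in DEP PND 1 to 20 (2.72%) and 2 in DEP PND 42 to 62 (14.7%). The counts were 1 in MPB GD 1 to 20 (4.02%), 0 in MPB PND 1 to 20 (1.67%), 3 in MPB PND 21 to 41 (9.84%, 1 of the 3 being Id1, whose OIL values there are part of the choice of genes) and 4 in MPB PND 42 to 62 (17.8%). They were 0 in TCS GD 1 to 20 (6.8%), 2 in TCS PND 1 to 20 (6.25%), 1 in TCS PND 21 to 41 (2%) and 1 in TCS PND 42 to 62 (3.01%). All chemicals of a window share its OIL rats, so their values against OIL are not independent of each other. The OIL rats of PND 21 to 41 also served the choice of genes, so p-values of the 10 genes against them are descriptions.

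Id1 stands in several of these lists. It is the gene whose values chose the set, so nothing is read from its place in them. After DEP over PND 21 to 41, the contrast on which the genes were chosen, it stood at 9.04, 8.88, 8.86, 9.002 and 8.82, against 9.81, 9.39, 9.85, 9.53 and 9.50 in OIL rats. No DEP array reached the OIL range, and the mean difference was -0.70 ± 0.12, with -0.76 within batch 1 and -0.60 within batch 2. Across all genes 0.0148% were called there and 0.577% had groups that did not overlap, from which nothing is read. Id3 differed by -0.40 and Smad6 by -0.26 in the same contrast, and the other 7 genes lay between -0.07 and 0.13. With the endothelial score in the model Id1 differed by -0.59.

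In the other DEP windows Id1 went both ways. After DEP over PND 42 to 62 it stood at 8.26, 9.11, 8.84, 9.05 and 8.61, against 9.21, 9.18, 9.18, 9.18 and 9.30 in OIL rats, with no overlap (3.58% of all genes did not overlap there). The difference was -0.43 ± 0.16 (adjusted p = 0.286), with -0.45 within batch 1 and -0.41 within batch 2. In that comparison the muscle markers had a median difference of 1.35 and the T cell markers of 0.95, and with muscle and B cell scores in the model Id1 differed by -0.07 ± 0.34. Without the muscle-rich array it differed by -0.51 ± 0.16 (adjusted p = 0.234).

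After DEP over GD 1 to 20 Id1 stood at 9.68, 10.01, 9.27, 10.20 and 9.27, against 9.90, 10.09, 10.30, 10.22 and 9.92 in OIL rats. The groups overlapped, and the difference was -0.40 ± 0.18 (adjusted p = 0.692). After DEP over PND 1 to 20 it stood at 9.75, 10.36, 10.10, 9.74 and 10.12, against 9.37, 9.75, 9.74, 9.68 and 9.72 in OIL rats. Of the DEP arrays, 3 exceeded every OIL array and the other two lay at the top of the OIL range, and the difference was 0.36 ± 0.18 (adjusted p = 1).

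**Figure D3:**
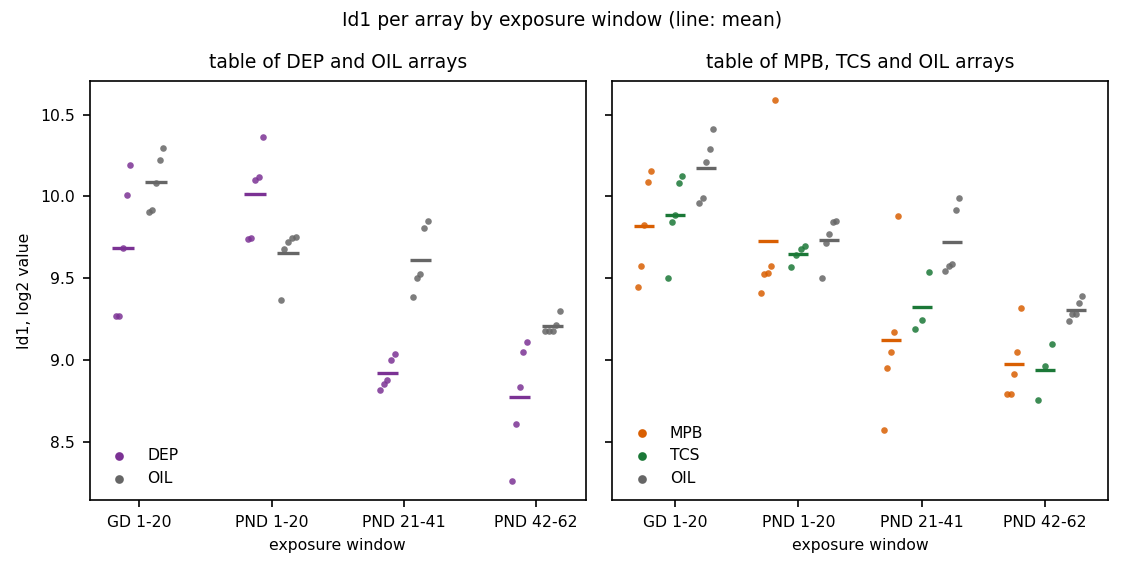
Log2 value of Id1 on each array by exposure window, with DEP left of its OIL rats in the DEP table (left panel) and MPB, TCS and OIL rats in the main table (right panel); lines mark the mean. DEP arrays lie below the OIL arrays after PND 21 to 41 and PND 42 to 62 and mostly above them after PND 1 to 20, and the MPB and TCS means are below OIL in every window, by little after PND 1 to 20 (9.73 and 9.65, against 9.74).

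After MPB over PND 21 to 41 Id1 stood at 9.05, 8.58, 8.95, 9.88 and 9.17, against 9.92, 9.54, 9.99, 9.58 and 9.58 in OIL rats, the animals that also served the DEP contrast, so the values of Id1 against them are a description. All but 1 of the MPB arrays lay below every OIL array, and the array at 9.88 was among the muscle-rich ones. The difference was -0.60 ± 0.19, with -0.96 within batch 1 and -0.06 within batch 2. It was -0.37 with the endothelial score in the model and -0.61 with the muscle and B cell scores instead. T cell and B cell markers had median differences of 1.64 and 1.19 there and luminal markers of -0.42, and their part in the result was not tested beyond those scores.

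After MPB over PND 42 to 62 Id1 stood at 9.32, 8.79, 8.79, 9.05 and 8.92, against 9.40, 9.28, 9.28, 9.24 and 9.35 in OIL rats. All but 1 of the MPB arrays lay below the OIL range, and the difference was -0.33 ± 0.11 (adjusted p = 0.164), with -0.35 within batch 1 and -0.31 within batch 2. Bmp4 in the same comparison stood at 7.89, 7.82, 7.85, 7.42 and 7.93, against 8.29, 8.12, 7.93, 8.11 and 8.23 in OIL rats. The groups did not overlap, by a narrow margin, where 1.75% of all genes did not overlap, and the difference was -0.35 ± 0.11 (adjusted p = 0.155). Id2 differed by 0.39 ± 0.15 (adjusted p = 0.208) and Bmp7 by 0.45 ± 0.21 (adjusted p = 0.27). All 10 endothelial markers were lower in this comparison, with a median of -0.20, and Id1 differed by -0.31 with the endothelial score in the model.

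After TCS over PND 42 to 62 Id1 stood at 8.97, 8.76 and 9.10, against 9.40, 9.28, 9.28, 9.24 and 9.35 in OIL rats, with no overlap (2.9% of all genes). The difference was -0.37 ± 0.13 (adjusted p = 1). After TCS over PND 21 to 41 it stood at 9.25, 9.54 and 9.19, against 9.92, 9.54, 9.99, 9.58 and 9.58 in OIL rats. The groups did not overlap (2.37% of all genes), but 1 TCS array and 1 OIL array met at the second decimal, and the difference was -0.31 ± 0.24, with -0.49 within batch 1, which holds all 3 TCS arrays. These Id1 values are a description, since the OIL values in that window are part of what chose the genes. Smad6 in that window differed by -0.37 ± 0.16 (adjusted p = 1), with 7.82, 8.49 and 8.14 in TCS rats, against 8.31, 8.69, 8.64, 8.30 and 8.46 in OIL rats.

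Over the 12 short-window groups of the main table, Id1 averaged 10.17 ± 0.20 in OIL GD 1 to 20 (SD, n = 5), the highest. Next came TCS GD 1 to 20 at 9.89 ± 0.25 and MPB GD 1 to 20 at 9.82 ± 0.31, then OIL PND 1 to 20 at 9.74 ± 0.14, MPB PND 1 to 20 at 9.73 ± 0.49, OIL PND 21 to 41 at 9.72 ± 0.21 and TCS PND 1 to 20 at 9.65 ± 0.06 (n = 4). Below them lay TCS PND 21 to 41 at 9.33 ± 0.19 (n = 3), OIL PND 42 to 62 at 9.31 ± 0.06, MPB PND 21 to 41 at 9.13 ± 0.48, MPB PND 42 to 62 at 8.98 ± 0.22 and TCS PND 42 to 62 at 8.94 ± 0.17 (n = 3), the lowest. Neighbours in this order differed by less than the larger of their SDs, except TCS PND 1 to 20 and TCS PND 21 to 41, whose gap exceeded both SDs, and OIL GD 1 to 20 and TCS GD 1 to 20, whose gap exceeded both as well.

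The other genes that reached an unadjusted p under 0.05 against OIL were scattered. After TCS over PND 1 to 20 Bmp7 stood at 8.43, 8.82, 8.76 and 8.24, against 9.53, 9.66, 10.34, 8.47 and 8.65 in OIL rats. The OIL rats split into 3 high and 2 low arrays by batch, with the high ones in batch 1, and the TCS arrays lay with the low ones. The difference was -0.85 ± 0.24 (adjusted p = 0.756), with -1.18 within batch 1 and -0.32 within batch 2, where 1 TCS array stands. Luminal markers were lower in 13 of 13 and T cell markers higher in 7 of 7 there, with medians of -0.80 and 1.05. Bmp2 in that comparison differed by 0.24 ± 0.11 (adjusted p = 0.788), Bmpr1a differed by -0.32 ± 0.13 in MPB PND 21 to 41 (adjusted p = 0.508) and by -0.29 ± 0.13 in DEP PND 42 to 62 (adjusted p = 0.334), and Smad6 by -0.29 ± 0.13 in MPB PND 21 to 41 (adjusted p = 0.508). Id4 and Smad7 had no unadjusted p under 0.05 against OIL in any tested comparison.

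Whether the difference from OIL depended on the window was tested with a moderated F over the 4 windows of each chemical. None of the 10 genes passed for MPB (0.0165% of all genes) or TCS (0%). The 4 DEP differences of Id1 were -0.40, 0.36, -0.70 and -0.43 from the earliest window to the latest, a description since the third chose the genes. The MPB differences of Id1 were -0.35, -0.01, -0.60 and -0.33, and Bmp7 after DEP gave 0.56, -0.63, -0.07 and 0.02, also descriptions.

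The 2 OIL groups killed at PND 21 differ only in when the dam was gavaged. In OIL GD 1 to 20 against OIL PND 1 to 20 none of the 10 genes passed, where 0.0055% of all genes were called, and 4 stood at an unadjusted p under 0.05, where 6.8% of all genes did. Id1 stood at 9.99, 10.21, 10.41, 10.29 and 9.96 in OIL GD 1 to 20, against 9.50, 9.85, 9.84, 9.72 and 9.77 in OIL PND 1 to 20, with no overlap (0.633% of all genes). The difference was 0.44 ± 0.16 (adjusted p = 0.666), and with the endothelial score in the model it was 0.09 ± 0.14. All 10 endothelial markers were higher there, with a median of 0.28, the endothelial score ran from 0.24 to 0.58 in OIL GD 1 to 20 and from -0.004 to 0.18 in OIL PND 1 to 20, and all 13 luminal markers were lower, with a median of -0.58. Id3 differed by 0.49 ± 0.15 (adjusted p = 0.624), Id4 by 0.35 ± 0.15 (adjusted p = 0.689) and Bmp7 by -0.75 ± 0.23 (adjusted p = 0.624). Of these, Bmp7 was -1.29 within batch 1 and 0.06 within batch 2, and Id4 was -0.12 within batch 1 and 1.07 within batch 2.

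At the end of lactation the chronic TCS rats again gave no call (0% of all genes), with 3 of the 10 genes at an unadjusted p under 0.05, against 12.9% of all genes. Id3 stood at 7.54, 7.21 and 7.54 in TCS rats, against 6.71, 6.79 and 6.52 in OIL rats. Id1 stood at 7.57, 8.42 and 7.93 in TCS rats, against 7.26, 7.25 and 7.10 in OIL rats. Both genes had every TCS array above every OIL array, with differences of 0.76 ± 0.14 for Id3 and 0.77 ± 0.21 for Id1 (adjusted p = 0.297 for each). Smad6 stood at 6.45, 5.97 and 6.27 in TCS rats, against 5.69, 5.98 and 5.84 in OIL rats, an overlap by 1 array, and differed by 0.39 ± 0.16 (adjusted p = 0.358).

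Bmp2 was the third gene with no overlap in the chronic arm, at 4.70, 4.93 and 4.78 in TCS rats, against 4.59, 4.66 and 4.61 in OIL rats. Its mean lay under 5 log2, so an alternative filter on dim genes at 5 leaves it out, and the difference was 0.19 ± 0.12 (adjusted p = 0.529). With 3 rats a group, 18.6% of all genes did not overlap. The median over the 10 genes was 0.26, against 0.01 over all genes. The chronic arrays were normalised apart from the others, so their levels are not set against earlier ages.

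All 10 endothelial markers were higher in the chronic TCS rats, with a median of 0.46, and the endothelial score ran from 0.18 to 0.36 in TCS rats and from -0.37 to -0.15 in OIL rats. Adipocyte and fibroblast markers had medians of 0.76 and 0.62, luminal markers of -0.50 and muscle markers of -0.89. With the endothelial score in the model Id3 differed by 0.15 ± 0.43 and Id1 by 1.01 ± 0.71. The part of the fat, stromal and epithelial content was not tested.

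**Figure D4:**
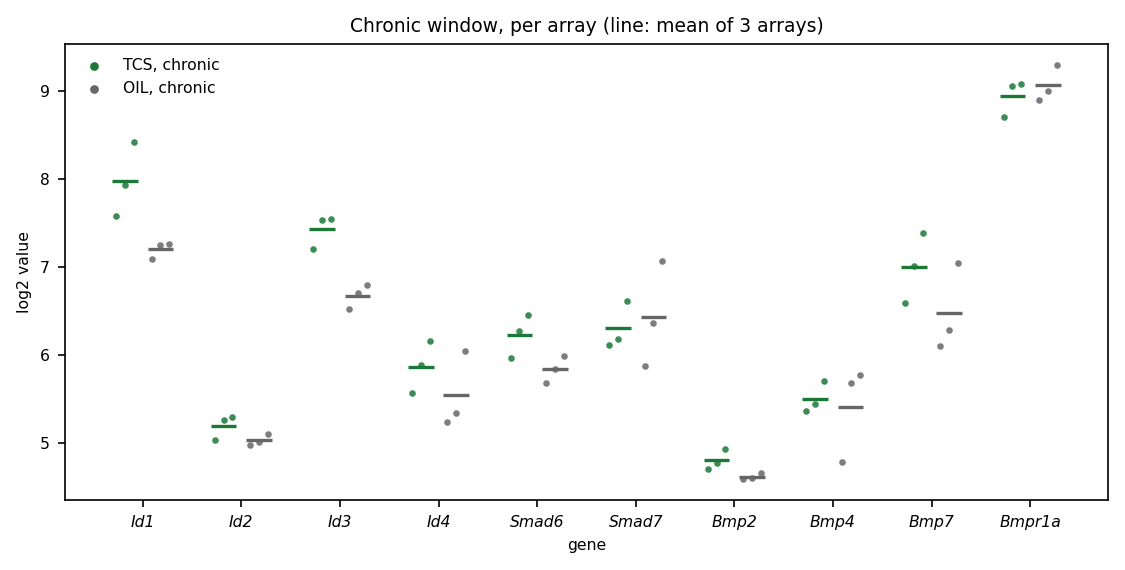
Log2 value of the 10 genes on each array of the chronic arm at PND 146, with the 3 TCS rats left of the 3 OIL rats for each gene; lines mark the mean of 3. Id1, Id3 and Bmp2 have every TCS array above every OIL array, and the other 7 genes overlap.

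Covariation was measured over the 55 short-window arrays of the main table after the mean of each group and batch was removed. Of the 45 pairs of the 10 genes, 21 had an adjusted permutation p under 0.05 for Pearson's r (100000 permutations within groups), 13 positive and 8 negative, and 19 of them also passed for Spearman's rho. Those 21, 46.7% of the member pairs, had an absolute r of at least 0.335, as had 21.2% of the pairs among all genes, and no p was computed for the other pairs. The strongest was Id4 with Bmp7, at r = 0.699 and rho = 0.715 (permutation p = 1e-05 for both, the smallest these permutations can give; adjusted p = 0.00045). It was 0.686 without the 2 arrays farthest from the median, 0.645 within batch 1 and 0.695 within batch 2. Id1 with Bmp4 followed at r = 0.64 and rho = 0.632 (permutation p = 5e-05 and 2e-05, adjusted p = 0.00045), with 0.555 without the 2 arrays and 0.685 and 0.578 within the batches. Smad7 with Bmpr1a was negative at r = -0.619 and rho = -0.581 (permutation p = 3e-05 and 0.00011, adjusted p = 0.00045 and 0.00099), with -0.596 without the 2 arrays and -0.356 and -0.737 within the batches.

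Pairs of targets ranged widely. Id1 with Id3 had r = 0.371 and rho = 0.32 (permutation p = 0.015 and 0.025, adjusted p = 0.037 and 0.054), with 0.319 without the 2 arrays and 0.389 and 0.0637 within the batches. Id1 with Smad6, another BMP target, had r = 0.518 and rho = 0.498 (permutation p = 0.00028 and 0.0005, adjusted p = 0.0016 and 0.0025), with 0.409 without the 2 arrays and 0.525 and 0.594 within the batches. Id2 with Id3 had r = 0.0537 and rho = -0.0135 (permutation p = 0.72 and 0.93, adjusted p = 0.76 and 0.94). All 21 pairs kept their sign without the 2 arrays and in both batches.

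Several pairs share a tie to tissue content. Across the 55 arrays Bmp4 had r = 0.79 with the endothelial score and 0.693 with the muscle score, Id1 had 0.708 with the endothelial score, and Bmpr1a had -0.832 with the T cell score and -0.806 with the B cell score. Smad7 had 0.671 with the T cell score and 0.653 with the B cell score. Bmp7 had 0.661 with the basal score and 0.567 with the luminal score, and Id2 had 0.471 with the luminal score. After the muscle, B cell and endothelial scores were removed as well, 19 of the 21 pairs kept their sign and 4 pairs passed. Id4 with Bmp7 was then 0.553 and Id1 with Id3 was 0.471, while Id1 with Bmp4 was 0.0858. Bmp2 with Bmpr1a was -0.0511, against -0.566 before, and Smad7 with Bmpr1a was -0.181, against -0.619 before.

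**Figure D5:**
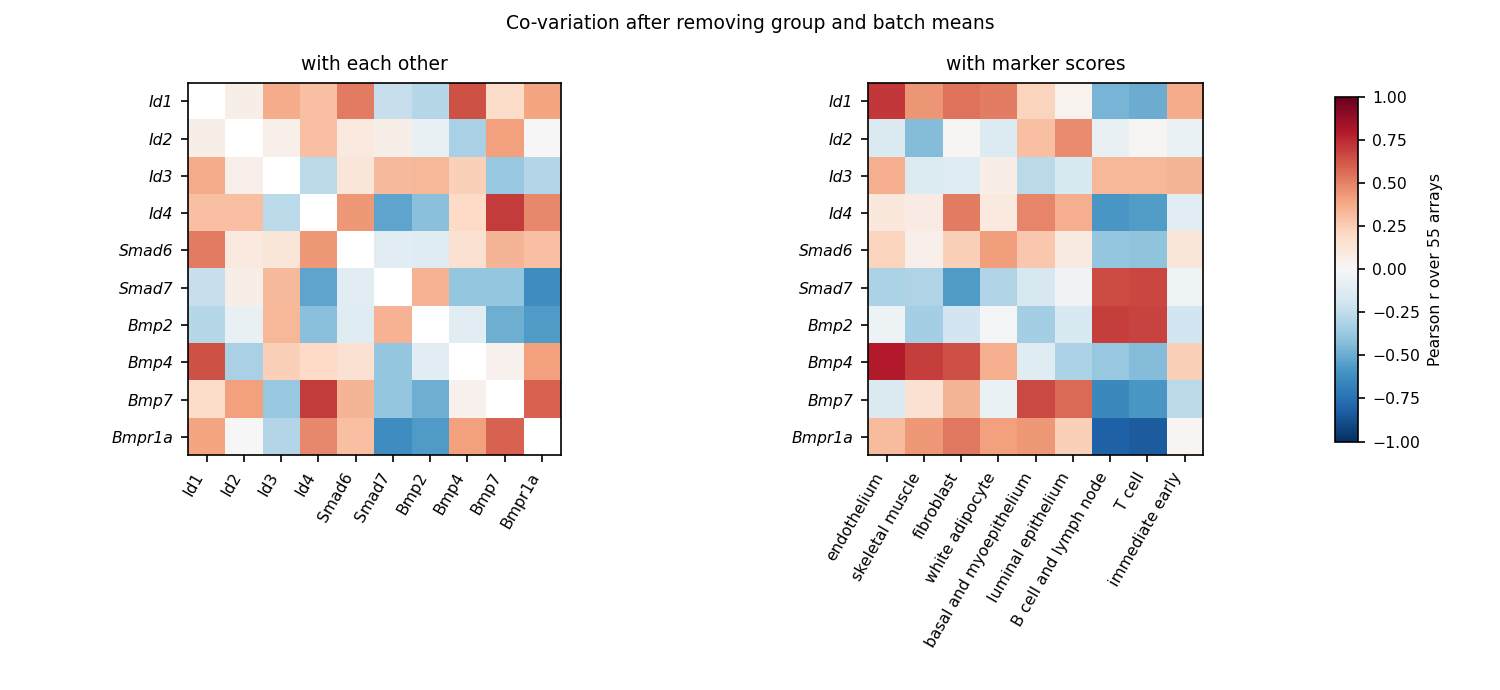
Pearson's r over 55 short-window arrays, after group and batch means were removed, among the 10 genes (left) and between the 10 genes and 9 marker scores (right); colour runs from -1 to 1. Id4 with Bmp7 (0.699) and Id1 with Bmp4 (0.64) are the strongest positive pairs, and Bmpr1a is most negative with the T cell (-0.832) and B cell (-0.806) scores.

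The genes most like each of the 10 over the same 55 arrays were found by the same r, as a description, since all share arrays and tissue content. Id1 was most like Egfl7 (0.788), Npr1 (0.775) and Dock6 (0.77), of which Egfl7, a factor secreted by endothelium, is on the endothelial marker list. Id3 was most like Sox18 (0.651), a transcription factor of vessels, Itpkb (0.643) and Gstm1 (0.637). Id2 was most like Itpripl1 (0.705), Stat5a (0.704), the prolactin signal carrier, and Tpgs2 (0.697), and Id4 was most like Aldh1l2 (0.762), Cacna1g (0.761) and Rrbp1 (0.759).

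Bmp7 was most like Gpsm2 (0.861), Smo (0.856), the hedgehog signal transducer, and Ptgfrn (0.851). Bmp4 was most like Mustn1 (0.862), Scn7a (0.841) and Tm6sf1 (0.835), and Bmp2 was most like Fam3d (0.734), Pilrb2l4 (0.727) and Clec4m (0.713). Bmpr1a was most like Neo1 (0.914), a receptor of netrins and a partner of BMP co-receptors, Arhgap5 (0.899) and Crybg3 (0.888). Smad6 was most like Nckap5l (0.731), Glis2 (0.729) and Dok4 (0.728), and Smad7 was most like Ell3 (0.822), Arid1a (0.819), a chromatin remodelling subunit, and Gnptab (0.814). None of the 10 genes named another of the 10 among its closest 3.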

How the data were processed

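RNA of 81 rat mammary glands was hybridised to Affymetrix whole-transcript arrays. The deposited values are log2 intensities; the submitters' processing notes name RMA and Affymetrix Expression Console as what the authors used, while the annotation build and any batch adjustment are not given in the sources used here. The DEP table (7780 clusters, DEP with its OIL rats) and the chronic table were normalised apart from the main table (36685 clusters, of which 18511 have 1 gene symbol, 575 several and 17599 are not listed in the annotation). The shared OIL arrays average 0.115 lower in the DEP table, so no comparison mixes tables. Over all arrays of the DEP table the batch means differ by an SD of 0.0231 across genes. With OIL arrays alone this SD is 0.169 there, against 0.401 in the main table. Overlap between groups was judged on the deposited values, with no batch term. TCS groups of batch 1 alone were set against groups of both batches this way, and the part of batch in their overlap was not tested. Arrays of the main table correlated at 0.916 to 0.995, and the lowest correlation was 0.688 in the DEP table and 0.966 in the chronic table.

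Per gene the single-symbol cluster with the highest mean was used. Comparisons were fitted with limma 3.58.1 (R 4.3.3), lmFit and eBayes, with batch as a term, all groups of an age sharing the spread, and p-values adjusted by Benjamini-Hochberg over all genes at 0.05; no filter on dim genes was set. The fits were tested on simulated data. Covariation, promoters and figures used Python 3.11.15, pandas 2.3.3, numpy 2.4.6 and matplotlib 3.10.9. A marker score is the mean of a list's log2 values, each minus its mean over the table's arrays. The named genes are the 10 members, up to 5 called pathway genes a comparison by absolute difference, and the 3 genes most like each member. The members and all lists were chosen with earlier results of these data known. Alternatives were no batch term, each batch alone, only the groups compared, a dim filter at 5, cluster means, marker scores as covariates, muscle-rich arrays left out, the other deposited tables, each array left out, and, added after seeing the data, pairs with 3 scores removed. Nothing in the labels beyond 1 pup a litter in the perinatal groups says how other rats were related, and the number of arrays limits the precision.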

Additional observations from a re-analysis of the deposited data

Results flagged for a closer look

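In 14 groups of 4 or 5 rats, each of the 10 genes was checked for a single array far from the rest, and 9 of 140 gene and group sets held one; chance gives about 1 in 20. Id1 stood at 10.59 in MPB PND 1 to 20 replicate 1, where the other arrays lay between 9.41 and 9.57, and Bmp4 stood at 8.48 on the same array, against 8.01 to 8.05 on the others. Id3 stood at 9.15 in OIL GD 1 to 20 replicate 5, against 9.47 to 9.60, and Bmp4 at 7.88 in OIL GD 1 to 20 replicate 1, against 8.25 to 8.33. Smad6 stood at 8.19 in OIL PND 42 to 62 replicate 2, against 8.02 to 8.06. Bmp4 stood at 7.42 in MPB PND 42 to 62 replicate 4, against 7.82 to 7.93. In DEP PND 21 to 41 replicate 1 Id3 stood at 8.78, against 7.92 to 8.17, and Bmpr1a at 9.96, against 10.36 to 10.52. Bmp2 stood at 6.59 in DEP PND 42 to 62 replicate 2, against 6.87 to 6.97.

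Id1 had opposite signs against OIL in TCS rats of the short windows and of the chronic arm, and none of these differences passed. Every TCS array lay below every OIL array after PND 21 to 41 (a difference of -0.31) and after PND 42 to 62 (-0.37, adjusted p = 1), and every chronic TCS array lay above every chronic OIL array (0.77, adjusted p = 0.297). The PND 21 to 41 values are a description, because the OIL values there are part of what chose the genes. The difference between the short-window and chronic effects was not tested, because the chronic arrays were normalised apart, and length of exposure cannot be told apart from age and the end of lactation.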

How the results depend on the processing

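Apart from fits that left out 1 array, 203 counts of members called stayed within 1.5 times their main value and 16 did not. Many of the 203 were counts of 0 that stayed at 0. The 16 all fell on comparisons with a main count above 0, and every such comparison changed under some alternative. In OIL rats the 4 genes called between PND 21 and PND 42 became 1 in each batch alone, 0 with the muscle score and the B cell score as covariates and 1 with the endothelial score. In MPB rats the 3 became 1 without the batch term, 0 in batch 2, 6 with muscle and B cell scores and 0 with the endothelial score. In TCS rats the 4 became 1 with the endothelial score. In DEP rats the 5 became 0 in batch 2, 2 with muscle and B cell scores and 0 with the endothelial score. The 1 gene called between PND 42 and PND 63 in OIL rats became 0 without the batch term, in batch 1, in batch 2 and with only the groups compared. Of 45 member pairs, the 21 that passed became 6 in batch 1, 0 in batch 2 and 4 with 3 scores removed. Id1 in MPB rats at PND 42 against PND 21, -0.65 over both batches, reversed to 0.036 in batch 2 alone. Smaller batches leave fewer arrays; otherwise the cause was not tested. Leaving out each array in turn gave 2 to 4 calls in OIL rats (2 without OIL PND 21 to 41 replicate 4), 1 to 3 in MPB rats (1 without MPB PND 21 to 41 replicate 2), 3 to 5 in TCS rats and 4 to 6 in DEP rats at PND 42, 0 to 1 in OIL rats and 0 to 1 in MPB rats at PND 63, and 0 to 1 for MPB PND 42 to 62 against OIL; in the last 2 the call came without MPB PND 42 to 62 replicate 2. No other comparison with OIL gained a call under any alternative run. No paired analysis was possible because the replicate numbers only name arrays in accession order.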
